A study of Mus musculus with 12 samples.

Results

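The small intestine of untreated ICR mice was described from 3 RNA-seq libraries, AOS0 replicates 1 to 3, which are 3 of the 12 libraries of the study. They were chosen by their label: the treatment is given as AOS0, and busulfan is not named for them. ICR is an outbred stock of laboratory mice. The other 9 libraries come from mice given busulfan, AOS or both, and their values were not used. The labels do not expand the abbreviation AOS or give its unit or route, and they do not say whether the AOS0 mice received a vehicle. The labels also give no age, sex or intestinal segment, and do not say whether the 3 libraries came from separate animals, so the spread between them may be technical. All 16942 genes of the deposited table were ranked by their level in FPKM (fragments per kilobase of transcript, scaled to library size), a unit that allows levels of different genes to be compared. One group of 3 allows no test, so every order of libraries below is a description.

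The inner surface of the small intestine is an epithelium of villi and crypts that renews itself continuously. Stem cells at the crypt base produce dividing progenitors, and these become absorptive enterocytes, mucus-secreting goblet cells, hormone-secreting enteroendocrine cells, chemosensory tuft cells, or Paneth cells, which release antimicrobial peptides at the crypt base. T cells sit between the epithelial cells, and connective tissue, vessels, nerves and muscle lie beneath. In a bulk sample that mixes cell types, a lower level of a cell type's genes can come from fewer such cells or from less RNA per cell, and these cannot be told apart.

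The total count was 14758439, 14996023 and 13560232 in replicates 1, 2 and 3. A level of at least 1 FPKM in all 3 libraries, called expressed here, was reached by 10505 genes (62.0% of the table). A level of at least 100 FPKM in all 3 was reached by 946 genes, and 99 genes reached 1000. A count of 0 in all 3 libraries was listed for 1111 genes. Protein-coding genes held 99.2% to 99.3% of the summed FPKM. The table has no row for mitochondrially encoded genes, immunoglobulin constant chains or T cell receptor chains, so shares are shares of the genes listed and those genes were not analysed here. Pearson's r of log2(FPKM + 1) over the expressed genes was 0.9939 between replicates 1 and 2, 0.9916 between 1 and 3 and 0.9935 between 2 and 3, across genes that are not independent of each other.

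A small number of genes held much of the signal. In replicates 1, 2 and 3, the 308, 293 and 281 most abundant genes made up 50% of the summed FPKM. The 10 genes of largest mean share held 8.25% ± 1.64 (SD, n = 3), the top 100 held 31.3% ± 1.02 and the top 1000 held 69.6% ± 0.60. The share of the top 10 was 6.85%, 7.85% and 10.1% in the 3 libraries, so replicate 3 was the most concentrated. The sets overlapped closely: 86 genes were among the top 100 of every library, of 111 that were there in any.

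**Figure D1:**
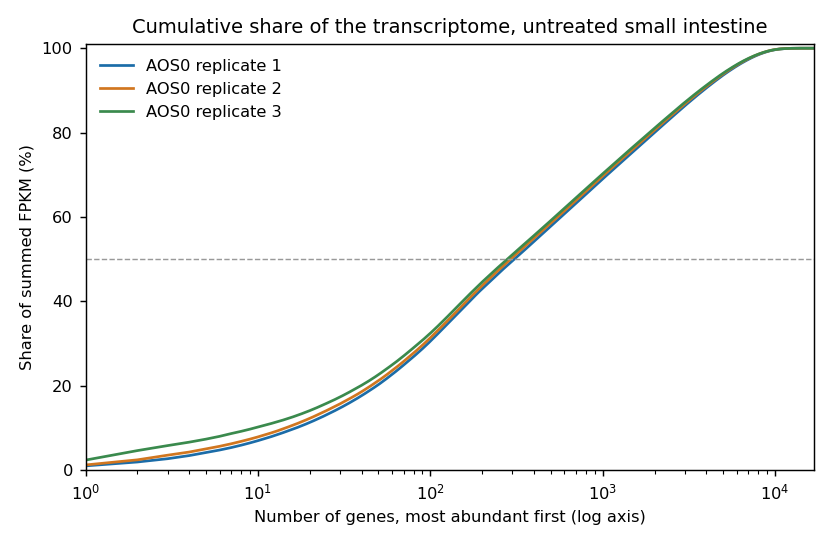
Cumulative share of summed FPKM (percent, vertical axis) against the number of genes taken from the most abundant down (log axis), 1 line for each AOS0 library, with a dashed line at 50%. The lines cross 50% at 308, 293 and 281 genes, and replicate 3 lies highest over the first 100 genes.

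Ranked by FPKM, the most abundant transcripts encoded secreted defence proteins. Reg3b and Reg3g, C-type lectins of the intestinal epithelium that act against bacteria at its surface, had the largest mean levels. Reg3b was at 5738, 7591 and 14948 FPKM in replicates 1, 2 and 3, and Reg3g at 4616, 7623 and 14201 FPKM. Both were lowest in replicate 1 and highest in replicate 3, with a highest library 2.60 and 3.08 times the lowest. In replicate 1 the highest gene was instead Zg16, a goblet cell lectin that binds Gram-positive bacteria, at 6228, 6909 and 7491 FPKM (chromosome 7, 127050156 to 127052675). Zg16 was the third gene by mean level, and its SD of 632 FPKM was small beside that of Reg3b, 4871 FPKM. Positions are RefSeq gene bounds on GRCm38.p6 throughout.

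Next came Lgals2 and Lgals4, galectins of the epithelium, at 4746 ± 329.6 FPKM and 2926 ± 197 FPKM (mean ± SD, n = 3, as for all such values here). Eef1a1, the translation elongation factor, stood between them at 4673 ± 178 FPKM. Tff3, the trefoil peptide secreted with mucus, had 3858 ± 329 FPKM and Lypd8, a surface protein that keeps flagellated bacteria from the epithelium, 3839.7 ± 251 FPKM. Apoa1, the main protein of high-density lipoprotein, was at 2951, 3575 and 3364 FPKM. The epithelial keratins Krt8 and Krt19 were at 3094 ± 167 FPKM and 2714 ± 176 FPKM, and 4 alpha-defensins of Paneth cells (Defa23, Defa30, Defa17 and Defa24) completed the first 15 genes. From Ppia, the sixteenth gene at 2672 ± 142 FPKM, to Rpl28, the twenty-ninth at 2024 ± 30.3 FPKM, means differed by little from one gene to the next and neighbours were not separated beyond their SD. Ribosomal proteins, the absorptive retinol binder Rbp2, the iron store Fth1, Gapdh and Actb belonged to that range. Atp5b, a subunit of the ATP synthase, was the thirtieth at 1884, 1956 and 1887 FPKM, below Rpl28 in each library. Of the genes in the top 30 of any library, 25 of 34 were there in all 3.

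**Figure D2:**
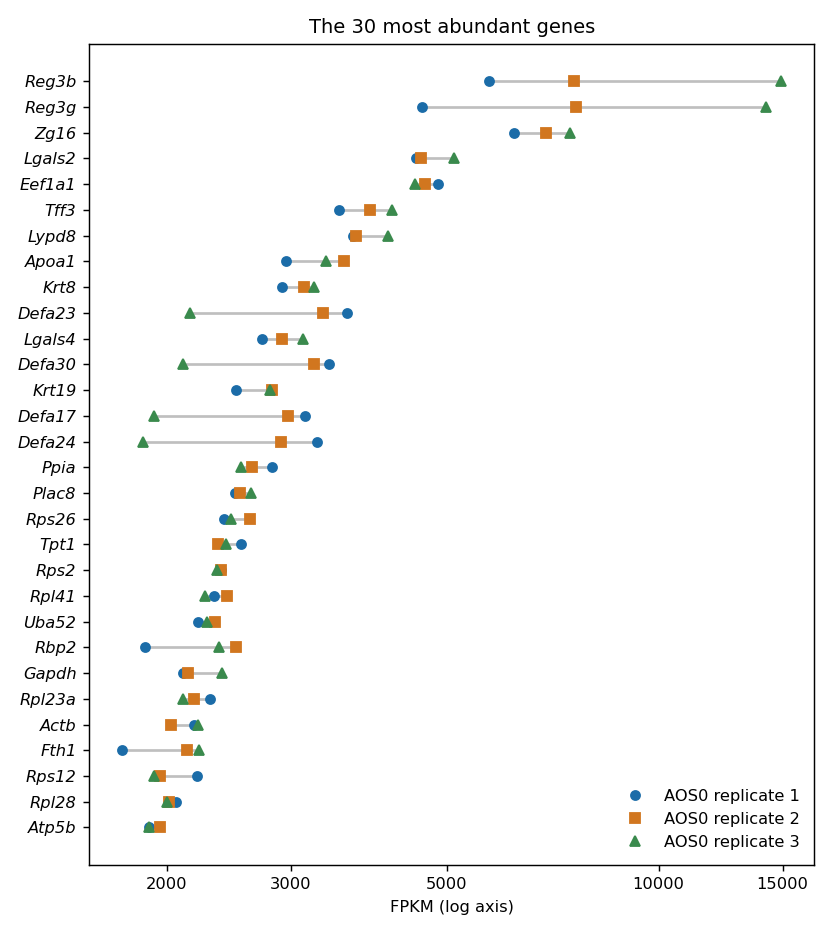
FPKM (log axis) of the 30 genes of largest mean level, 1 row per gene, with a point for each AOS0 library and a grey line from the lowest to the highest. Reg3b and Reg3g spread from 5738 to 14948 and from 4616 to 14201, the 4 defensins lie lowest in replicate 3, and most other genes show points close together.

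Reg3b (chromosome 6, 78370885 to 78373466) and Reg3g (chromosome 6, 78466269 to 78468874) lie 92.8 kb apart. The 100 bases before each RefSeq start are shown because these neighbours were the 2 highest genes and had the same order of libraries; capitals mark the TATA box core TATAAA, which begins 29 bases before the start in Reg3b and 27 in Reg3g.
Reg3b (chr6:78370785-78370884, plus strand): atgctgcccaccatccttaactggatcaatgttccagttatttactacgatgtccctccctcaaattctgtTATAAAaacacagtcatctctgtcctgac
Reg3g (chr6:78468875-78468974, minus strand): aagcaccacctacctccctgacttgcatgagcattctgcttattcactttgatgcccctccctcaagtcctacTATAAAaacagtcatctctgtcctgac
The last 20 bases were identical in both (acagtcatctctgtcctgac). Other members of the family were far lower and did not share one order. Reg1 was at 127, 124 and 407 FPKM and was also highest in replicate 3, while Reg3a was at 244, 133 and 229.8 FPKM and was lowest in replicate 2. Reg4 had 127, 123 and 94.7 FPKM, lowest in replicate 3. The 7 genes of the family together held 1.74%, 2.50% and 4.74% of the summed FPKM and 0.697%, 0.995% and 1.91% of the counts.

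Defence genes were also counted as a list. Of the 20 expressed genes on a list of 24 antimicrobial and defence genes, 13 were highest in replicate 3, against 27% of all expressed genes; the list includes Reg3b, Reg3g and Reg1, whose order is given above. Saa1, an acute-phase protein, was at 14.8, 27.3 and 89.0 FPKM, so replicate 3 stood apart from the other libraries. Duox2, which makes hydrogen peroxide at the apical surface, had 57.0, 63.0 and 77.9 FPKM, and Nos2, the inducible nitric oxide synthase, 23.5, 22.3 and 33.9 FPKM. Retnlb, a goblet cell peptide, was highest in replicate 2 at 355, 570.0 and 461 FPKM. Pigr, which carries dimeric immunoglobulin A across the epithelium, was abundant and even, at 1537, 1704 and 1688 FPKM. Tlr4, Tlr5, Saa3 and Retnla were below 1 FPKM in every library.

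All 18 goblet cell markers were expressed, and together they held 2.49%, 2.76% and 2.92% of the summed FPKM. After Zg16 and Tff3 came Spink4 at 1556 ± 154 FPKM, Agr2, a disulphide isomerase needed to fold mucin, at 1302 ± 76.4 FPKM, and Fcgbp, which binds to mucin 2, at 907 ± 104 FPKM. Guca2a, the hormone guanylin, was at 871 ± 51.4 FPKM and the mucus protease Clca1 at 852 ± 74.1 FPKM. Muc2, the gel-forming mucin, was at 264, 296 and 326 FPKM. The transcription factors that specify the lineage were much lower, with Spdef at 22.2 ± 2.25 FPKM and Atoh1 at 16.4 ± 0.739 FPKM. Replicate 3 was highest for 14 of the 18 genes, and replicate 1 lowest for 14, against 25.8% of all expressed genes. No marker was above 1.5-fold between the highest and lowest library. The median coefficient of variation (CV, the SD over the mean) was 8.32%. It was 7.79% over all genes with a mean of at least 1 FPKM and 5.18% over genes at 100 to under 1000 FPKM. Among mucins, the membrane mucin Muc13 was the highest at 1356, 1604 and 1931 FPKM, Muc3 had 60.5, 45.6 and 83.1 FPKM, and the gastric and airway mucins Muc6 and Muc5b were below 1 FPKM.

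Of 20 Paneth cell markers in the table, 19 were expressed, and they held 3.19%, 3.11% and 1.98% of the summed FPKM. FPKM divides by gene length: of the counts, which are not so divided, the same markers held 0.829%, 0.82% and 0.536%, below the enterocyte markers (2.27%, 2.54% and 2.43%) and the goblet cell markers (1.66%, 1.91% and 1.99%), so the order of these lists by share depends on the unit. Defa23 was at 3605, 3338 and 2156 FPKM, Defa30 at 3396, 3237 and 2109.9 FPKM and Defa17 at 3140, 2976 and 1917 FPKM. Lyz1, the Paneth cell lysozyme, was at 1978, 1959 and 1185 FPKM. For these 4 genes, replicates 1 and 2 lay close together and replicate 3 lay below both. Defa5 had 1005, 1221 and 622 FPKM, Ang4, an antimicrobial ribonuclease, 494, 610.0 and 311 FPKM, and Itln1, the lectin intelectin, 651, 714 and 568 FPKM. Mptx2 had 251, 274 and 181 FPKM and Mmp7, the protease that activates alpha-defensins, 104, 128 and 107 FPKM. Mmp7 was lowest in replicate 1, so the low values of replicate 3 did not extend to every marker. Replicate 3 was lowest for 15 of the 19, against 45.9% of all expressed genes. The ratio of highest to lowest library exceeded 1.5 for 13, against 7.76% of all expressed genes. Many of these markers are alpha-defensins, and counts were not whole for 13 of the 20, so reads were divided among similar genes. The members are therefore not independent of each other, and these counts of members cannot be read as separate observations. The markers' median log2 deviation from the 3-library geometric mean was 0.15, 0.19 and -0.46.

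Of 22 defensin genes, 16 were expressed. All 16 were lowest in replicate 3, against 45.9% of all expressed genes. The summed share of the family was 2.88%, 2.79% and 1.67% of FPKM and 0.515%, 0.496% and 0.299% of counts. Counts were not whole for 18 of the 22, so reads were divided among near-identical copies. The level of a single defensin is therefore uncertain, and the 16 genes are not independent of each other. Several of them are also among the Paneth cell markers above, so the 2 counts overlap. Defa32 was listed at 0 in replicates 1 and 2 and at 42.0 FPKM in replicate 3, the opposite order to its relatives, and its counts were not whole. The sequences before the starts of Defa23 and Defa30 are shown as examples of this gene group, again with TATAAA in capitals.
Defa23 (chr8:21054940-21055039, plus strand): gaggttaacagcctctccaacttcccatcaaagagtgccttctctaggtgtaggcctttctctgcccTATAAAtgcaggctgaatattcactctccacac
Defa30 (chr8:21134550-21134649, plus strand): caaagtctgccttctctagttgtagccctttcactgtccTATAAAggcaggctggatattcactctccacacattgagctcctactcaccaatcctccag
They share a run of 17 bases (atattcactctccacac). TATAAA on either strand was found in 11 of 12 defensin promoters listed by RefSeq (250 bases before to 50 after the start), against 13.6% of all 32851 promoters there and 8.97% of the promoters of genes in the deposited table. Another 10 defensin genes had no entry.

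All 20 enterocyte markers were expressed, and they held 2.32%, 2.74% and 2.59% of the summed FPKM. The fatty acid binding proteins Fabp2 and Fabp1 were at 1672, 1364 and 1558 FPKM for Fabp2 and 1365, 1714 and 1432 FPKM for Fabp1. Anpep, an aminopeptidase of the brush border, was at 1476, 1644 and 1829 FPKM, and Vil1, which bundles actin in microvilli, at 712 ± 17.9 FPKM. The disaccharidases were lower: Sis (sucrase-isomaltase) was at 169, 138 and 104 FPKM, Mgam (maltase-glucoamylase) at 161, 148 and 137 FPKM, Lct (lactase) at 83.1, 93.0 and 56.5 FPKM and Treh (trehalase) at 58.9, 85.3 and 64.1 FPKM. Sis and Mgam were highest in replicate 1, while Lct and Treh were highest in replicate 2. Alpi, the intestinal alkaline phosphatase, had 270.2 ± 31.9 FPKM. Tmprss15, the enteropeptidase that activates trypsin and is made mostly in the duodenum, had 0.17, 1.05 and 0.83 FPKM. Of 32 brush border genes 30 were expressed, with a median CV of 9.68% against 7.79% over all genes with a mean of at least 1 FPKM. That background includes many genes of low level. The median CV was 6.44% over genes at 10 to under 100 FPKM and 5.18% at 100 to under 1000.

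Lipid handling was led by Apoa1, Fabp2, Fabp1 and Apoa4, and 25 of the list's 26 genes were expressed. Apoa4, a chylomicron protein whose gene lies 10.4 kb from Apoa1 on chromosome 9, was at 889.7, 1682 and 1051 FPKM, so replicate 2 was above the other libraries. Apoc2, the cofactor of lipoprotein lipase, had 244, 485 and 365 FPKM and Apoc3 342, 409.7 and 320.1 FPKM, also highest in replicate 2. The enzymes that rebuild triglyceride were more even, with Mogat2 at 236, 250.3 and 258 FPKM and Dgat1 at 336, 341 and 355 FPKM. Mttp, which loads lipid onto apolipoprotein B, was at 359, 416 and 373 FPKM, Apob itself at 52.8, 64.8 and 55.6 FPKM, and Npc1l1, the cholesterol importer, at 153, 149 and 152 FPKM. Cd36, a fatty acid transporter, was low at 4.38, 5.93 and 4.66 FPKM, and Apoa5, a liver apolipoprotein, was below 1 FPKM.

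Among nutrient transporters 34 of 37 were expressed. Slc5a1, the sodium-glucose cotransporter, was at 209, 191 and 183 FPKM. The facilitative fructose and glucose carriers Slc2a5 and Slc2a2 were at 10.6, 12.1 and 9.97 FPKM for Slc2a5 and 11.4, 10.1 and 6.25 FPKM for Slc2a2, far below Slc5a1 per transcript length. The amino acid carriers Slc7a8, Slc7a9 and Slc6a19 had 123 ± 2.06 FPKM, 110.4 ± 11.2 FPKM and 54.6 ± 4.95 FPKM, and the peptide carrier Slc15a1 20.4 ± 2.35 FPKM. Slc39a4, the zinc importer, was at 105 ± 8.47 FPKM. For iron, the stores Fth1 and Ftl1 were at 1728, 2139 and 2222 FPKM for Fth1 and 1236, 1344 and 1493 FPKM for Ftl1, the importer Slc11a2 at 19.6, 24.2 and 22.4 FPKM and the exporter Slc40a1 (ferroportin) at 10.3, 14.2 and 20.0 FPKM, lowest in replicate 1 for all 4. Over the whole iron list 10 of 15 genes were expressed. Replicate 1 was lowest for 6 of the 10 and highest for 3, against 25.8% and 46.4% of all expressed genes. Cybrd1, the duodenal ferric reductase, and Trpv6, the apical calcium channel, were below 1 FPKM in every library.

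Genes used as markers of position along the intestine gave a mixed picture, with markers of both ends expressed. On the proximal list 14 of 15 genes were expressed and on the distal list 16 of 18. Fabp6, the ileal bile acid binding protein, was at 1982, 1380.3 and 1349 FPKM, highest in replicate 1. Slc51a and Slc51b, the basolateral bile acid exporter, were at 267, 264 and 305 FPKM for Slc51a and 218, 194 and 229 FPKM for Slc51b, and Slc10a2, the apical bile acid importer of the ileum, at 9.96, 7.70 and 10.4 FPKM. Of proximal genes, Gata4, a transcription factor of duodenum and jejunum, was at 57.5, 60.4 and 56.9 FPKM, Adh1 at 289, 387 and 317 FPKM, Ada at 24.1, 46.3 and 34.6 FPKM and Pdx1, a duodenal factor, at 2.10, 2.54 and 3.06 FPKM. Replicate 2 was highest for 10 of the 14 proximal genes, against 26.6% of all expressed genes, and replicate 1 lowest for 11, against 25.8%. Replicate 3 was highest for 12 of the 16 distal genes, against 27% of all expressed genes, among them Nts at 12.6, 11.9 and 27.0 FPKM, Hoxb9 at 3.42, 3.04 and 6.71 FPKM and Pyy at 11.5, 13.9 and 19.2 FPKM. Nts and Pyy are hormone genes that are also on the enteroendocrine list described below, so the counts of these lists overlap. Median log2 deviations were -0.25, 0.17 and -0.02 for the proximal list and -0.06, -0.13 and 0.15 for the distal list. Whether the libraries sampled different lengths of intestine was not tested. Of 11 genes chosen as colon markers 9 were expressed, but Car1, the carbonic anhydrase of colonic cells, was at 0, 0 and 0.14 FPKM and Aqp8 at 1.00, 1.43 and 1.96 FPKM, while Ang4, Muc2 and Ceacam1 on that list are also made in the small intestine.

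Enteroendocrine genes were detected at low levels. Of 19 in the table, 12 were expressed, and the whole list held 0.037%, 0.0445% and 0.0539% of the summed FPKM and 0.0173%, 0.0209% and 0.025% of the counts. Gip, the hormone that potentiates insulin release, was highest at 88.2, 102 and 130.2 FPKM, followed by Sst (somatostatin) at 25.4, 40.8 and 33.2 FPKM and Sct (secretin) at 31.1, 29.9 and 35.8 FPKM. Chga, chromogranin A of secretory granules, had 15.2, 17.6 and 19.7 FPKM, Cck (cholecystokinin) 10.6, 16.6 and 24.2 FPKM, Gcg (proglucagon) 12.1, 15.6 and 18.6 FPKM and Ghrl (ghrelin) 5.58, 5.30 and 8.84 FPKM. Replicate 3 was highest for 9 of the 12 and replicate 1 lowest for 8, against 27% and 25.8% of all expressed genes. The specifying factors Neurod1, Pax6 and Insm1 were below 1 FPKM. Of the receptors for gut hormones and luminal nutrients, 19 of 22 were below 1 FPKM in every library. The other 3 were expressed, against 62.0% of all genes in the table. Vipr1, the receptor for vasoactive intestinal peptide, was the exception with a substantial level, 59.9, 64.5 and 67.5 FPKM. Tuft cell genes held a lower share of the summed FPKM than enteroendocrine genes. Trpm5, a cation channel of chemosensory cells, was at 2.59, 2.14 and 2.26 FPKM and Dclk1, a standard tuft marker, at 0.60, 0.56 and 0.48 FPKM. The tuft list's share, 0.0228% on average, rested on Cd24a at 123 ± 4.87 FPKM, which other crypt cells also express. Of the counts the tuft list held 0.0244% on average and the enteroendocrine list 0.0210%, so the order of these lists depends on the unit.

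Crypt stem cell genes were expressed in all 3 libraries and lowest in replicate 3. Olfm4, an abundant secreted marker of the crypt base (chromosome 14, 80000302 to 80023141), was at 535, 487 and 315 FPKM. Lgr5, the receptor for R-spondin that defines the stem cells, was at 3.81, 3.31 and 1.82 FPKM and ranked 8933, 9080 and 9967 among all genes. Smoc2 had 45.1, 37.2 and 31.5 FPKM, Ascl2, the transcription factor of stem cell fate, 8.41, 7.58 and 5.48 FPKM, and Rnf43, which removes Wnt receptors from the surface, 10.2, 9.87 and 9.08 FPKM. Replicate 3 was lowest for 13 of the 14 expressed genes, against 45.9% of all expressed genes, with Prom1 as the exception at 24.5, 20.8 and 24.8 FPKM. The list's median log2 deviation was 0.25, 0.04 and -0.27. The values of Paneth and stem cell genes, both of the crypt base, were thus low in the same library, and whether that library held less crypt tissue was not tested.

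Genes of dividing cells followed the same order more uniformly. All 30 were expressed, 29 were highest in replicate 1, against 46.4% of all expressed genes, and all 30 were lowest in replicate 3, against 45.9%. Ube2c, which marks mitotic proteins for destruction, was at 250.3, 236 and 197 FPKM, Hmgb2, a chromatin protein, at 258, 226 and 179.9 FPKM and Pcna, the DNA polymerase clamp, at 158, 144 and 123 FPKM. Mki67, the usual proliferation antigen, was at 23.6, 22.3 and 14.8 FPKM, Top2a at 49.6, 43.6 and 34.4 FPKM and Ccnb1 (cyclin B1) at 39.0, 35.9 and 30.5 FPKM. Aurka, a mitotic kinase, was the gene with another highest library, at 37.5, 38.0 and 27.9 FPKM. The size was modest: 1 of the 30 (Mki67) exceeded 1.5-fold, and the median log2 deviation was 0.19, 0.04 and -0.23. The list held 0.331%, 0.296% and 0.245% of the summed FPKM. Replicate 1 also tended high over all expressed genes, by a median of 0.03 on the log2 scale, and replicate 3 low, by -0.03.

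The promoters of Ube2c and Hmgb2, the highest of these genes, are shown with the CCAAT box, or its reverse complement ATTGG, in capitals.
Ube2c (chr2:164769829-164769928, plus strand): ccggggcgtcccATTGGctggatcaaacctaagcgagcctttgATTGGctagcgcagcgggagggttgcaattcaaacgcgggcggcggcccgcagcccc
Hmgb2 (chr8:57511743-57511842, plus strand): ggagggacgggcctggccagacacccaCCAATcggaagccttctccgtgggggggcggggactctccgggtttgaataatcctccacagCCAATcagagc
Each holds it at 2 places. In the 300-base RefSeq windows, ATTGG on either strand occurred in 22 of 26 promoters of dividing cell genes (84.6%), against 37.4% of all promoters. It was not particular to this list, since it also occurred in all 12 defensin promoters and in 9 of 15 promoters of Paneth cell markers. TATAAA occurred in none of the 26, against 13.6% of all promoters.

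Lymphocyte genes were present at low levels and were lowest in replicate 2. Ccl5, a chemokine of activated T cells, was at 181, 102 and 145 FPKM, and the granzymes Gzma and Gzmb of cytotoxic cells at 155, 78.5 and 145 FPKM for Gzma and 56.5, 33.6 and 50.3 FPKM for Gzmb. Cd3g and Cd3e, chains of the T cell receptor complex, had 20.0, 10.4 and 18.9 FPKM for Cd3g and 6.29, 4.19 and 7.11 FPKM for Cd3e. Cd8a had 8.95, 6.76 and 10.3 FPKM, Itgae, the integrin that holds lymphocytes in the epithelium, 7.70, 4.42 and 5.71 FPKM, and Cd4, the helper co-receptor, 1.36, 0.58 and 0.70 FPKM. All 15 expressed genes of the list of 19 were lowest in replicate 2, against 28.3% of all expressed genes, and 14 exceeded 1.5-fold between the highest and the lowest library, against 7.76%. The list held 0.0768%, 0.0423% and 0.0663% of the summed FPKM and 0.0399%, 0.0225% and 0.0354% of the counts.

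Few B cell and macrophage genes were expressed. The numbers were 4 of 13 B and plasma cell genes and 4 of 17 macrophage and dendritic cell genes, against 62.0% of all genes in the table. Of 13 B and plasma cell genes 8 were below 1 FPKM in every library, among them Ms4a1 and Mzb1; Xbp1 and Sdc1, which epithelial cells also make, led the list at 98.1 ± 6.63 FPKM and 49.4 ± 2.75 FPKM. Jchain, which joins the chains of secreted immunoglobulin A, was at 2.37, 1.49 and 5.27 FPKM. Of 17 macrophage and dendritic cell genes 12 were below 1 FPKM in every library, including Adgre1, Csf1r and C1qb. Cd14 was the highest at 40.8, 47.4 and 56.8 FPKM. The mast cell proteases Mcpt1 and Mcpt2 were at 37.3, 44.3 and 94.8 FPKM for Mcpt1 and 12.1, 18.5 and 39.4 FPKM for Mcpt2, with replicate 3 above the other libraries for both. These 2 proteases mark mast cells of the mucosa, while Cma1 and Tpsb2, of connective tissue mast cells, were below 1 FPKM. Of 12 mast cell and eosinophil genes 4 were expressed. Replicate 3 was highest for 3 of the 4, against 27% of all expressed genes. The other gene was highest in replicate 1 and lowest in replicate 3.

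Interferon-stimulated and antigen-presentation genes were highest in replicate 1. Of 15 expressed interferon-stimulated genes, 14 were highest in replicate 1, against 46.4% of all expressed genes, and 14 were lowest in replicate 2, against 28.3%. Bst2, which tethers budding virus, was at 166, 64.6 and 80.4 FPKM, Isg15, a ubiquitin-like modifier, at 127, 61.1 and 78.1 FPKM, and Oas1a, a sensor of double-stranded RNA, at 123, 88.0 and 103 FPKM. Irf7, a transcription factor of the response, had 142, 106 and 121 FPKM. The list's median log2 deviation was 0.40, -0.34 and -0.08. Ifi27 was the gene that departed, at 22.3, 25.2 and 20.1 FPKM.

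All 20 genes of the major histocompatibility complex and its peptide loading were expressed, 18 were highest in replicate 1, against 46.4% of all expressed genes, and 15 were lowest in replicate 2, against 28.3%. B2m, the light chain of class I, was even at 1881, 1739 and 1785 FPKM. The class II genes spread more, with Cd74 (the invariant chain) at 1689, 848 and 1266 FPKM, H2-Aa at 607, 241 and 410.2 FPKM and H2-Ab1 at 496, 239 and 362 FPKM. Ciita, the class II activator, was at 7.63, 4.81 and 7.15 FPKM. H2-Eb1 followed another order, 53.1, 41.5 and 11.8 FPKM, with replicate 3 lowest. Its neighbour, the pseudogene H2-Ea-ps, did likewise, at 53.5, 30.1 and 8.79 FPKM. Counts of 11 of the 20 genes were not whole, and the part of shared reads in their values was not tested. The T cell genes given above were highest in replicate 1 for 12 of 15 and lowest in replicate 2 for all 15, the same library order as the interferon-stimulated list, and the part of lymphocytes in its values was not tested.

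The sequences before Oas1a and Isg15 are shown for their interferon-response core (GAAA, then any 2 bases, then GAAA) in capitals; overlapping matches run together.
Oas1a (chr5:120907526-120907625, minus strand): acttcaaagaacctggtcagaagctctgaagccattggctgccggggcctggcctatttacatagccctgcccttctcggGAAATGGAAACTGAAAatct
Isg15 (chr4:156200819-156200918, minus strand): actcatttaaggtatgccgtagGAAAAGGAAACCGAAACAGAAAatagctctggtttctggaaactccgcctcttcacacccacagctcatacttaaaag
This core occurred on either strand in 8 of 14 promoters of interferon-stimulated genes (57.1%), against 3.44% of all promoters. The STAT palindrome TTCNNNGAA occurred in 4 of the 14 (28.6%), against 8.30% of all promoters. For enterocyte genes, an HNF4-type repeat (CAAAGTCCA) occurred in 2 of 19 promoters, against 0.475% of all promoters. A 13-base palindrome of HNF1, a factor of gut and liver, occurred in none of the 19 and in 3 of all 32851.

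Defining markers of the deeper layers of the intestinal wall were near 0, in a sample labelled as intestine. Expressed were 2 of 12 smooth muscle, 4 of 16 fibroblast and matrix and 1 of 11 endothelial genes, against 62.0% of all genes in the table. Of 12 smooth muscle genes 10 were below 1 FPKM in every library. Acta2, the smooth muscle actin, was at 0, 0.19 and 0.12 FPKM, Des (desmin) at 0, 0.05 and 0 FPKM and Myh11, the smooth muscle myosin, at 0, 0 and 0.05 FPKM. Mylk and Smtn, which are not confined to muscle, were the 2 expressed, at 52.5 ± 1.97 FPKM and 9.33 ± 0.984 FPKM. Of 16 fibroblast and matrix genes 12 were below 1 FPKM, with Col1a1 at 0.09, 0.16 and 0.09 FPKM and Col3a1 at 0.22, 0.33 and 0.50 FPKM; Fbln1, a matrix glycoprotein, was at 25.8, 35.3 and 26.4 FPKM and Vim at 4.33, 3.21 and 5.45 FPKM. Of 11 endothelial genes 10 were below 1 FPKM, with Pecam1 at 0.32, 0.39 and 0.49 FPKM and Kdr at 0, 0.02 and 0 FPKM, and all 10 genes of enteric neurons and glia were below 1 FPKM. The 8 gastric genes in the table were also below 1 FPKM, and no neutrophil gene of 6 reached 1 FPKM in all 3 libraries.

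A few transcripts of other sources were measurable. Hba-a1, the alpha chain of haemoglobin, was at 23.1, 14.97 and 63.2 FPKM and Hbb-b1, a beta chain, at 9.58, 4.24 and 30.8 FPKM, both highest in replicate 3. Clps, the pancreatic colipase, was at 67.4, 82.2 and 39.9 FPKM. Of 9 pancreatic acinar genes 3 were expressed, Clps among them. The other 6, such as Cela2a, Ctrb1 and Prss2, were below 1 FPKM in every library. Of 7 liver genes 2 were expressed and 4 were below 1 FPKM in every library. Tat led that list, while Alb and Fgb were below 1 FPKM. Genes of the Y chromosome were detected in every library, with Eif2s3y at 27.3, 23.1 and 21.8 FPKM and Ddx3y at 4.91, 4.90 and 4.36 FPKM.

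**Figure D3:**
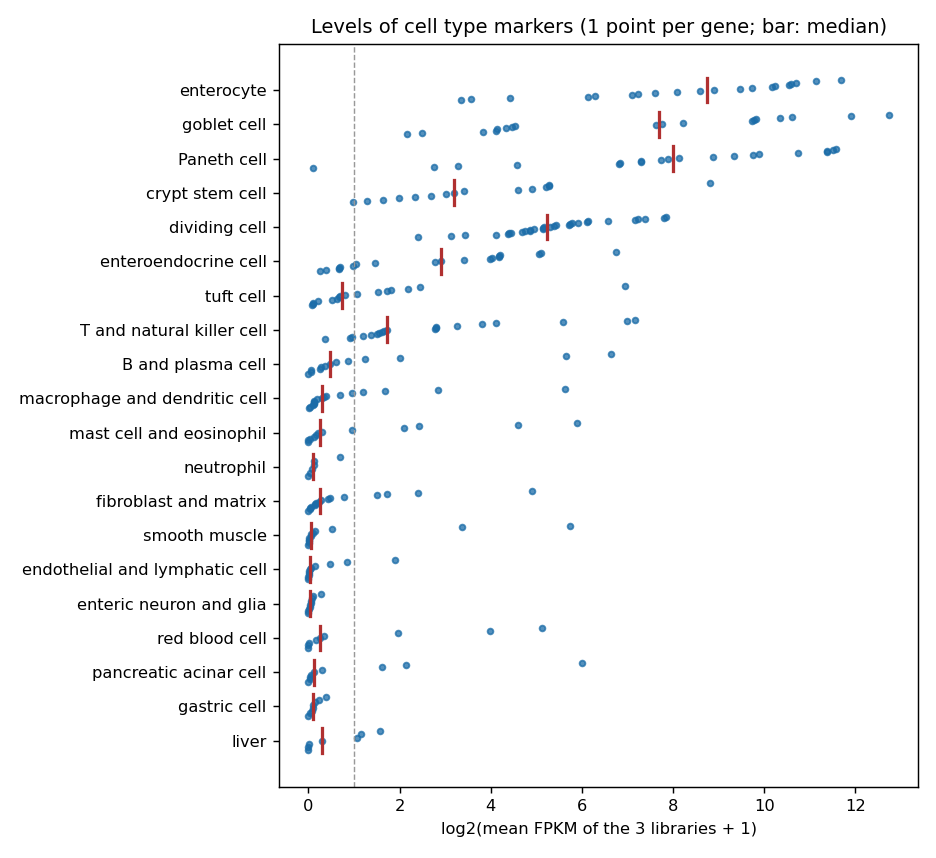
Mean level of each marker gene over the 3 AOS0 libraries, as log2(mean FPKM + 1) on the horizontal axis, with 1 point per gene, 1 row per cell type and a bar at the median; the dashed line lies at 1 FPKM. The medians of enterocyte, goblet and Paneth markers lie far to the right, and those of muscle, endothelial, neural and gastric markers lie near 0.

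Epithelial junction genes and subunits of the respiratory chain were even between libraries. Of 28 junction genes 27 were expressed, with a median CV of 3.63%. Epcam, the epithelial adhesion molecule, was at 868, 852 and 839.6 FPKM, Cldn7 at 717, 709 and 751 FPKM, Cldn15, a claudin that forms cation pores, at 484, 492 and 502 FPKM and Cdh1 (E-cadherin) at 234, 239 and 233 FPKM. Cldn3 had 353, 390.3 and 419 FPKM, Cldn2, of the crypt, 84.2, 81.6 and 80.3 FPKM, and Cldn1 was below 1 FPKM. Subunits of oxidative phosphorylation, 84 of 88 expressed, had a median CV of 3.78% and held 5.16%, 5.29% and 5.25% of the summed FPKM, or 2.24%, 2.29% and 2.28% of the counts. Ribosomal proteins held 13.1%, 12.6% and 12.0% of the summed FPKM and 4.80%, 4.55% and 4.41% of the counts, the largest mean share of the families listed on either unit, with 89 of 93 genes expressed.

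Of 38 transcription factors of intestinal identity 37 were expressed, and none exceeded 1.5-fold between libraries. Elf3, an epithelial factor, was highest at 353, 349 and 385 FPKM. Hnf4a, which controls many enterocyte genes, was at 300.2, 292 and 294 FPKM and its relative Hnf4g at 80.8, 69.6 and 60.1 FPKM. Cdx2 and Cdx1, which set intestinal identity, had 105, 104 and 117 FPKM for Cdx2 and 159.6, 138 and 129.5 FPKM for Cdx1. Vdr, the vitamin D receptor, was at 119.9, 151 and 135 FPKM, Isx, a regulator of vitamin A uptake, at 114, 128 and 139.7 FPKM and Klf5, of crypt progenitors, at 149.5, 164 and 155 FPKM. Sox9, of the crypt base, had 9.51, 9.60 and 6.96 FPKM. Prdm1, which marks immature intestinal epithelium, was the factor that was not expressed, at 0.66, 0.57 and 0.69 FPKM.

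Signals that maintain the crypt are carried by the Wnt, Notch, BMP and EGF pathways. Of 52 genes listed for them 30 were expressed, a share near the 62.0% of all genes in the table. Among ligands, the Notch ligand Dll1 was at 13.8, 12.9 and 13.3 FPKM and Ihh, the epithelial hedgehog, at 39.7, 42.0 and 49.4 FPKM, whereas Wnt3, the Wnt of Paneth cells, was at 1.15, 1.34 and 0.74 FPKM and Egf at 0.08, 0.10 and 0.09 FPKM. Ligands and inhibitors known from the mesenchyme, such as Rspo3, Nog and Wnt5a, were below 1 FPKM. Of receptors, Fzd5 was at 38.1, 35.4 and 34.0 FPKM, Lgr4 at 29.9, 28.1 and 31.6 FPKM, Erbb3 at 39.1, 43.1 and 43.7 FPKM, Bmpr1a at 13.6, 13.6 and 11.9 FPKM and Notch1 at 4.32, 3.88 and 3.47 FPKM. Of targets, Id1, induced by BMP, was at 92.6, 98.3 and 109 FPKM and Hes1, induced by Notch, at 34.1, 32.9 and 28.2 FPKM.

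Some drug-metabolising genes were highest in replicate 2. Of 37 such genes 33 were expressed, and 20 were highest in that library, against 26.6% of all expressed genes. Counts were not whole for 14 of the 37, so reads were divided among similar genes, and the members are not independent of each other. Cyp3a11, the main inducible cytochrome P450 of this group, was at 22.1, 66.6 and 22.9 FPKM (chromosome 5, 145854607 to 145879854), Cyp2b10 at 9.37, 26.9 and 10.9 FPKM and Cyp2c65 at 17.9, 28.9 and 17.6 FPKM. The glutathione transferases Gstm1 and Gstm3 had 84.5, 171 and 105 FPKM for Gstm1 and 220.1, 330.2 and 254 FPKM for Gstm3. The receptors Nr1i2 and Nr1i3, which induce such genes, were even at 43.5, 44.4 and 49.0 FPKM for Nr1i2 and 11.6, 11.8 and 12.2 FPKM for Nr1i3. Of the most abundant members, Gstp1 was at 1261, 1501 and 1411 FPKM, also highest in replicate 2. The carboxylesterase Ces2e was even at 502, 494 and 498 FPKM, and Cyp4f14 was at 247, 248.80 and 262 FPKM. Heat shock genes Hspa1a and Hspa1b were highest in replicate 2 as well, at 20.8, 40.2 and 21.9 FPKM for Hspa1a and 52.9, 78.1 and 51.3 FPKM for Hspa1b. Of the clock genes, Arntl was even at 29.0, 28.4 and 27.5 FPKM.

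**Figure D4:**
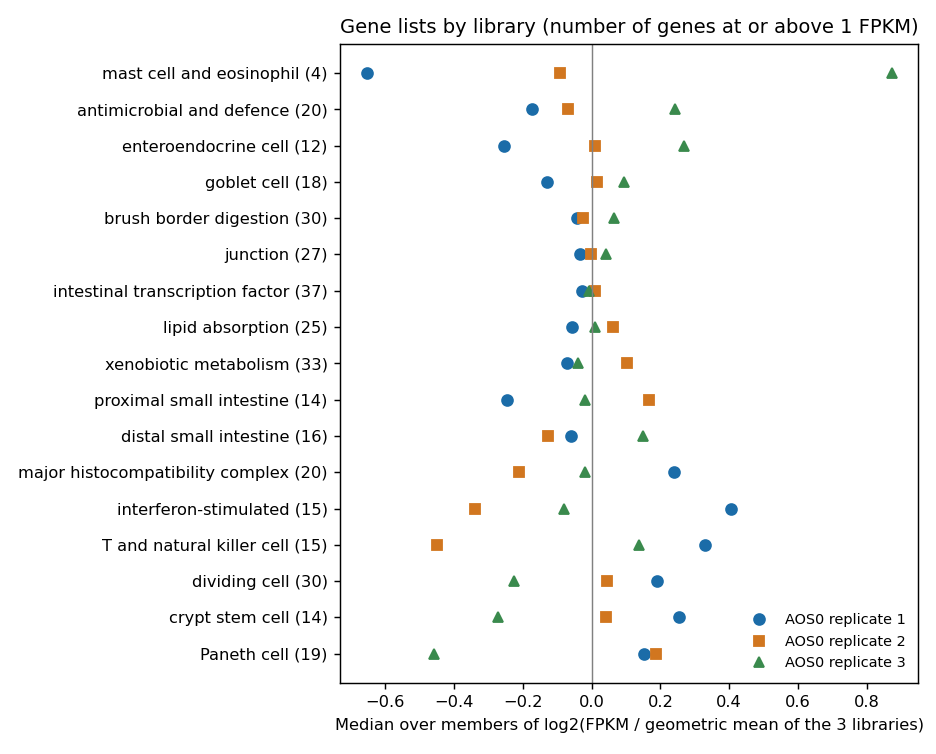
Median over the expressed genes of each list of log2(FPKM over the geometric mean of the 3 libraries), 1 row per list with its number of genes, 1 point per AOS0 library. Paneth, stem and dividing cell genes lie lowest in replicate 3, T cell, interferon-stimulated and histocompatibility genes lowest in replicate 2, and junction genes and transcription factors lie near 0 in all 3.

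Over single genes the libraries were close. The median CV was 7.79% over the 10786 genes with a mean of at least 1 FPKM. The median counting CV of these genes, computed from the mean count of each gene, was 4.33%. The median CV over libraries was 10.97% at mean levels of 1 to under 10 FPKM, 6.44% at 10 to under 100 and 5.18% at 100 to under 1000. Above 1000 FPKM it was 5.73%, and 11 of those 111 genes (9.91%) exceeded 1.5-fold between highest and lowest library. That share was near the 9.40% over all genes with a mean of at least 1 FPKM. From the lowest to the highest of the other ranges it was 17.2%, 3.72% and 4.04%. The most even named genes with a mean of at least 10 FPKM were Mmadhc, of cobalamin metabolism, at 42.0, 41.9 and 41.9 FPKM, and Tln1 (talin), at 19.6, 19.7 and 19.6 FPKM. Plcb3, a phospholipase, was even at a high level, 245, 246 and 247 FPKM, as was Ndufa10 of respiratory complex I, 255, 255 and 254 FPKM. Such values lie closer than counting error would usually give, and were picked as the lowest of many.

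Among named genes with a mean of at least 10 FPKM, apart from Defa32, the widest gap was in Ceacam2, an adhesion molecule of the carcinoembryonic antigen family (chromosome 7, 25516042 to 25540004), at 8.53, 121 and 130.1 FPKM. Its close relative Ceacam1 had the opposite order, 388, 312 and 248.98 FPKM. Counts of Ceacam2 were not whole, so reads were shared with another gene, and whether the division of reads sets its values was not tested. Gsdmc3, of the gasdermin family, was at 6.26, 49.7 and 8.64 FPKM, also with counts that were not whole. Plet1, a surface protein of epithelial progenitors, was at 4.22, 9.61 and 22.8 FPKM and Ly6a, an interferon-inducible surface antigen, at 112, 22.3 and 38.4 FPKM. The counts of these last 2 were whole, and their spread of 78.3% and 83.0% (CV) exceeded counting errors of 5.82% and 3.77%.

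**Figure D5:**
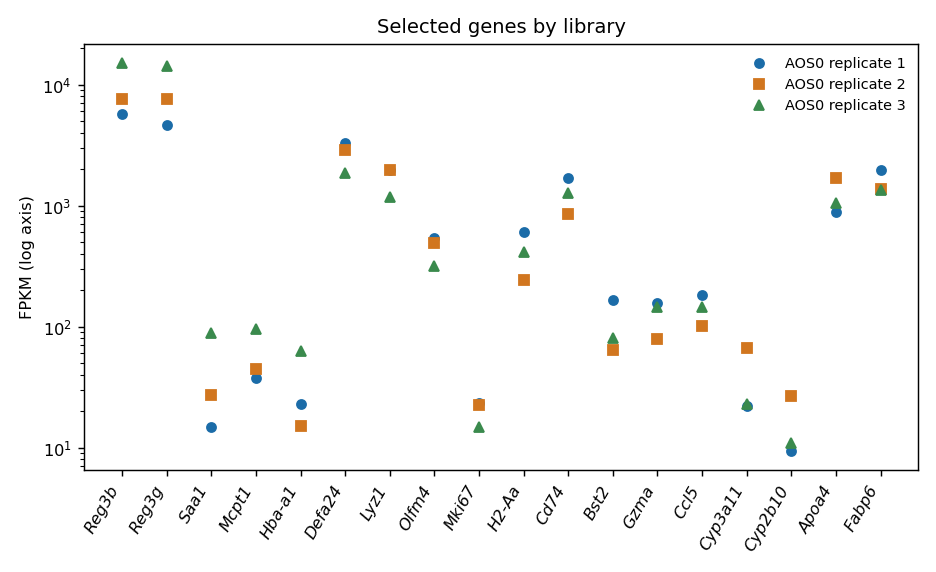
FPKM (log axis) of 18 genes named above, picked for display after their values were seen, with a point for each AOS0 library. Reg3b, Reg3g, Saa1, Mcpt1 and Hba-a1 lie highest in replicate 3, Defa24, Lyz1, Olfm4 and Mki67 lowest in replicate 3, and Cyp3a11, Cyp2b10 and Apoa4 highest in replicate 2.

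The same motifs were counted before the most abundant genes. TATAAA on either strand was present in 9 of 25 promoters of the 30 most abundant genes and in 19 of 90 promoters of the top 100 (21.1%), against 13.6% of all promoters and 8.97% of those of genes in the deposited table. Within the top 100, it was found in 1 of 29 ribosomal protein promoters and in 18 of 61 promoters of the other genes. Over the whole ribosomal protein family it was in 9 of 86 promoters (10.5%), near those shares, and no test was made of these counts. The promoters of Defa23 and Defa30 shown above are among the 61 of the other genes. ATTGG, by contrast, was in 38.9% of the promoters of the top 100, near the 37.4% of all promoters. RefSeq gave an entry for 80 of these 100 genes, and a match is a run of letters and no evidence of binding.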

How the data were processed

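Total RNA of mouse small intestine was sequenced, and the study deposited 1 table of 16942 genes for 12 libraries. Reads were placed on build mm10, as the submitters' processing notes state. The aligner, counter, annotation, filters and use of strand were not given in the sources used here, and an antisense or overlapping gene may therefore hold reads of its partner. The expression values, as deposited by the authors, were read as FPKM: the header names no unit, but for 5211 genes (over 500 counts in each library) count divided by value tracked the library's total to within 0.147%. Expected counts were deposited by the authors without normalization, under headers that call them read counts, and 9.11% to 9.19% were not whole (tolerance 1e-06). The 26 columns of the other 9 libraries and of group averages were not used.

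From the FPKM of the 3 AOS0 libraries, levels, ranks, shares of the library sum, SD and CV were computed with Python 3.11.15, numpy 2.4.6 and pandas 2.3.3, and the code was tested on simulated data. Highest and lowest libraries, and ratios above 1.5, were counted over genes of at least 1 FPKM in all 3 libraries. No test was made. The counting CV is 100 over the root of the mean count and covers counting error only. A list's deviation is the median over members of log2(FPKM over the geometric mean). Gene IDs were matched to RefSeq GRCm38.p6 (16835 of 16942), the source of positions and promoters. The 6 motifs named in the text were sought on both strands, overlaps allowed, and all 6 were sought in every set of promoters.

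Members and the 43 gene lists were chosen with earlier results of these data known. Genes named are the 30 most abundant, up to 8 leading members and any example of each list or symbol family, markers near 0, and the 10 most and 10 least variable genes of mean 10 FPKM or more; gene models without a name were left out of the last. Some genes that this rule names are not reported here. Alternatives tried were CPM (counts scaled to the library total), other minimum levels, the genes ranked within each library, leaving out Reg3b or a library, and other scalings, the last chosen after seeing the data. Figures were drawn with matplotlib 3.10.9.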

Additional observations from a re-analysis of the deposited data

How the results depend on the processing

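On CPM, which is not divided by gene length, the 10 leading genes held 5.84% in place of 8.25%, the top 100 held 20.6% in place of 31.3%, and 793 genes on average, in place of 294, made up 50%. Leaving out each library gave 7.40% to 8.99%, 30.8% to 31.8% and 287 to 300.5 genes. The number of expressed genes stayed within 1.5 times 10505, at 7920 with a minimum of 5 FPKM, 11228 with 0.5 FPKM, 11428 on CPM and 10557 to 10615 without 1 library. The median CV of 7.79% was 9.73% over all genes above 0 in every library, 6.21% for means of at least 10 FPKM, and 5.65% to 7.63% without 1 library. Shares of lists and families moved by more than their SD on CPM for 61 of 71, and without Reg3b for 4. Scaling by median ratios (factors 1.024, 1 and 0.9801), chosen after seeing the data, or by the library sum, left the highest library of 52 of 59 lists and families and the lowest of 55 in place; those that changed were groups of small deviation such as solute carriers, transporters, tuft cell and clock genes. No paired analysis was possible because the libraries form 1 group and no test was made. With 3 libraries, an SD is itself imprecise. Near 1 FPKM, counting error is large beside the differences between libraries.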

Other observations

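Some families outside the cell type lists were also uneven. Of 38 expressed proteasome subunits, 30 were highest in replicate 1, against 46.4% of all expressed genes, and the highest subunit by mean level was Psmb9, an interferon-inducible catalytic subunit, at 384, 276 and 306 FPKM. Psmb8, another inducible subunit, had 307, 244 and 253 FPKM. Of 63 expressed translation factors 46 were highest in replicate 1 and 48 were lowest in replicate 3, with Eef2 at 1089, 1114 and 1056 FPKM, where all expressed genes lean the same way (46.4% and 45.9%).

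Of 24 Hox genes 18 were below 1 FPKM in every library and 4 were expressed, against 62.0% of all genes in the table. The 4 expressed were low, with Hoxb9 and Hoxb6, which pattern the trunk along its length, at 3.42, 3.04 and 6.71 FPKM and 2.46, 1.79 and 4.24 FPKM. Both were highest in replicate 3. Of 37 olfactory receptor genes 35 were below 1 FPKM in every library and 1 was expressed. Among aquaporins Aqp11 was at 50.1, 53.3 and 49.9 FPKM and Aqp1, a water channel, at 55.3, 43.5 and 36.3 FPKM, the latter lowest in replicate 3. S100a10, a partner of annexin A2, was at 864, 868 and 977 FPKM, while S100g, the calcium-binding calbindin of the duodenum, was at 16.7, 9.37 and 26.5 FPKM.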
